A study of Mus musculus with 29 samples.

Results

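Matrix metalloproteinases (MMPs) and the tissue inhibitors of metalloproteinases (TIMPs) were followed in brown adipose tissue (BAT) and in the gastrocnemius, a skeletal muscle (SkM), of mice under calorie restriction (CR), exercise training (EX) or both (CREX). The members were the rows of the deposited count table that carried 1 of 10 chosen gene symbols. These were 6 MMPs (Mmp2, Mmp3, Mmp9, Mmp14, Mmp15 and Mmp19) and 4 inhibitors (Timp1, Timp2, Timp3 and Timp4) out of 24770 symbols in all, and every one of the 10 was found. In sedentary mice, CR lowered Mmp2 by 1.73-fold in BAT and 1.78-fold in SkM and raised Timp3 by 1.67-fold and 1.8-fold. Mmp15 was downregulated in both tissues, Mmp9, Mmp14 and Timp2 were downregulated in BAT, and Timp4 was upregulated in BAT. With EX, none of the 9 members that could be tested in BAT or the 7 in SkM passed, where 0% to 0.0775% of all genes did.

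The mice were wild-type males of the strain C57BL/6J, and the interventions began at 8 weeks of age and lasted 8 weeks. Control mice ate chow freely and stayed sedentary, CR mice received stepwise less food down to 70% of free intake, EX mice ate freely and ran on a treadmill for 1 hour on 5 days a week, and CREX mice were restricted and ran. All groups were fasted for 6 hours before tissue collection, which fell 24 hours after the last run, so a fast is shared by the controls. BAT was sequenced from 3 control, 4 CR, 4 EX and 4 CREX mice, and SkM from 4 control, 3 CR, 4 EX and 3 CREX mice, 29 libraries in all. The records do not say whether the BAT and SkM samples came from the same animals. Each sample counts as 1 replicate and is named by its group and number (EX library 3), and p-values measure the spread between these samples.

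MMPs are zinc-dependent proteases that cleave collagens, gelatins and other proteins of the extracellular matrix, and they are made as inactive precursors. TIMPs are small secreted proteins that lodge in the active site of the proteases and block it. The membrane-bound Mmp14, with Timp2 as a bridge, activates the gelatinase Mmp2 at the cell surface, so the balance of these genes bears on how matrix is turned over in fat and muscle.

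The sequences that define the members are shown first, because they tell the protease from the inhibitor. In each MMP the catalytic zinc is held by 3 histidines, and the 33 bases of GRCm38 that encode this site are printed 5′ to 3′ on the coding strand from GENCODE M21 transcripts, with the codons of the histidines in capitals. The site lies in 1 coding exon in each gene: chr8:92839279-92839311 for Mmp2, chr2:164951133-164951165 for Mmp9, chr9:7449775-7449807 for Mmp3, chr10:128795673-128795705 for Mmp19, chr14:54437627-54437659 for Mmp14 and chr8:95368585-95368617 for Mmp15, all on the plus strand.
Mmp2: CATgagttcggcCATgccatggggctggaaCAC
Mmp9: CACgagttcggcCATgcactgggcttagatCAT
Mmp3: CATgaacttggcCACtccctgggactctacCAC
Mmp19: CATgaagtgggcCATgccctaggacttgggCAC
Mmp14: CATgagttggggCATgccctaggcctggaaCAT
Mmp15: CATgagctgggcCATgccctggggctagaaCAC

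In each TIMP the first residues of the mature protein, which begin with a cysteine, reach into the active site of the protease. The 27 bases that encode them are printed with the codons of the first cysteine and the next one in capitals. They lie at chrX:20871111-20871137 (plus strand) for Timp1, chr11:118354986-118355012 (minus) for Timp2, chr10:86300923-86300949 (plus) for Timp3 and chr6:115251665-115251691 (minus) for Timp4, again each in 1 exon.
Timp1: TGTagcTGTgccccaccccacccacag
Timp2: TGCagcTGCtccccggtgcacccgcaa
Timp3: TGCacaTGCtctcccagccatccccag
Timp4: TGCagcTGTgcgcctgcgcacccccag

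Libraries held between 21047242 and 24919377 counts in BAT and between 23050918 and 23425284 in SkM. Levels are given as CPM, the count scaled to a common library total and, within a tissue, for composition. The limit of detection was set at 3 counts, which ranged over BAT libraries from 0.119 to 0.143 CPM and over SkM libraries from 0.114 to 0.141 CPM. These limits cover counting error only. Across comparisons, a gene was a differentially expressed gene (DEG) when the adjusted p of edgeR was under 0.05 and the fold change above 1.5. The brown adipocyte markers were high in BAT (7 genes, 10796 to 15934 CPM in sum, against 305 to 714 CPM in SkM) and the muscle fibre markers in SkM (10 genes, 104201 to 178344 CPM in sum). In BAT, however, the muscle fibre markers summed to between 2.92 and 5801 CPM, and EX library 3 of BAT carried an unusual amount of matrix RNA. The 10 matrix substrate genes summed to 2025 CPM in that library and to 676 to 758 CPM in the other 3 EX libraries, and the tendon markers to 7.44 CPM against 0.598 to 0.782 CPM. The members' values for EX and CREX against EX in BAT that depend on it are therefore given with and without it.

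In the untreated state, levels can be compared between genes only per length, here as CPM per kilobase of annotated exon. In control BAT, Timp3 stood highest at 12.7 ± 3.76 (SD, n = 3), followed by Timp2 (7.18 ± 1.62), Mmp19 (5.52 ± 0.53), Mmp2 (5.34 ± 0.16), Timp4 (4.82 ± 1.76), Mmp15 (2.95 ± 0.15), Mmp14 (1.32 ± 0.03), Mmp3 (0.665 ± 0.24), Mmp9 (0.486 ± 0.18) and Timp1 (0.219 ± 0.05). Of the neighbors in this order, Timp2 and Mmp19, Mmp19 and Mmp2, Mmp2 and Timp4, and Mmp3 and Mmp9 overlapped between libraries. In control SkM the same quantity was highest for Timp2 (13.9 ± 1.73, n = 4), then Timp3 (10.7 ± 0.95), Mmp2 (6.97 ± 0.45), Timp4 (4.47 ± 1.56), Mmp15 (4.30 ± 0.44) and Mmp14 (1.27 ± 0.33), while Timp1, Mmp9, Mmp19 and Mmp3 averaged 0.319 or less. Mmp2 overlapped Timp4 there, Timp4 overlapped Mmp15, and Timp1, Mmp9 and Mmp19 overlapped one another.

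Mmp19, a secreted protease, was higher in BAT than in SkM. In control mice, 9 members could be tested between the tissues, and 5 were DEGs, beside 60% of all 13797 genes tested. Mmp19 was 20.5-fold lower in SkM than in BAT (log2 difference -4.36, SE 0.22, adjusted p = 5.29e-09). Mmp3, the stromelysin that cleaves many matrix proteins, was among the 5, but it passed the filter through BAT (22, 42 and 23 counts) while control SkM held 3, 0, 1 and 1 counts, at or under the limit of detection, so no fold is given. Timp2 was 2.35-fold higher in SkM (adjusted p = 2.14e-05), Mmp15 1.76-fold higher (adjusted p = 1.89e-05) and Mmp2 1.57-fold higher (adjusted p = 3.54e-05). Timp3 and Timp4 differed by 0.03 and 0.17 on the log2 scale, with 95% intervals of -0.30 to 0.35 and -0.50 to 0.84. These and all later intervals use a normal quantile, so they are approximate and narrower than the test behind the p-values would give. Tissue and library preparation cannot be told apart in this contrast.

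CR against control in BAT asked what restriction does in sedentary mice. Of the 9 members that passed the filter on low counts (Timp1 did not), 5 were downregulated (Mmp2, Mmp9, Mmp14, Mmp15 and Timp2) and 2 were upregulated (Timp3 and Timp4). Over all 13323 genes tested, 6.86% were downregulated and 3.87% upregulated. Mmp3 and Mmp19 did not pass (log2 fold changes -0.02 and -0.07, SE 0.34 and 0.13). The median log2 fold change of the 9 members was -0.64 and that of all genes 0.0045.

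**Figure D1:**
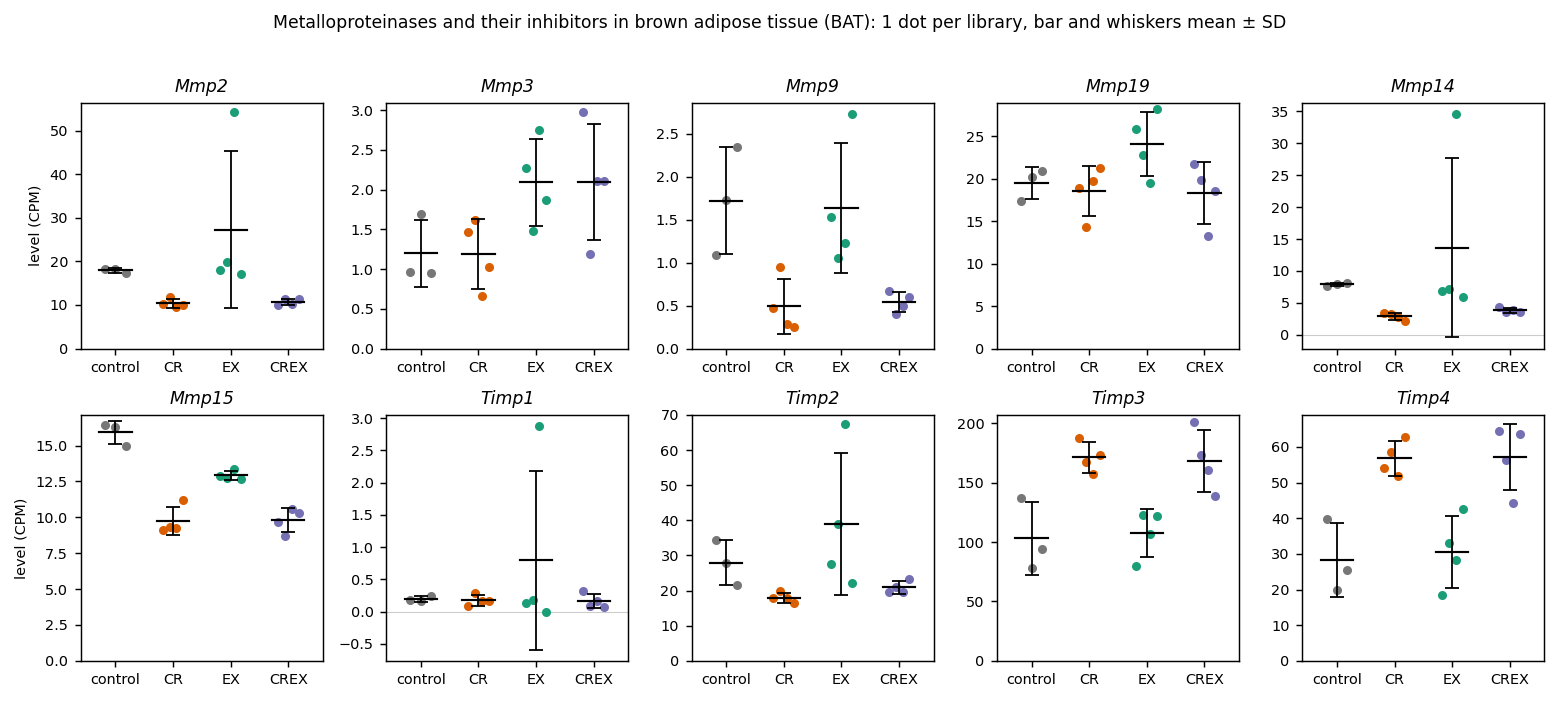
Level (CPM, linear axis) of each member in every BAT library, by group, with the mean and SD as bar and whiskers. The CR and CREX libraries lie below all control and EX libraries for Mmp2, Mmp9, Mmp14 and Mmp15 and above them for Timp3 and Timp4, and EX library 3 stands far above the other EX libraries for Mmp2, Mmp14 and Timp1.

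The gelatinase Mmp2, which cleaves denatured collagen and basement membrane collagen, stood in BAT at 18.3, 18.3 and 17.4 CPM in the control libraries and at 10.2, 11.8, 9.61 and 9.95 CPM in the CR libraries. The 2 groups did not overlap, and CR was 1.73-fold lower (log2 fold change -0.79, SE 0.09, adjusted p = 0.000383). In the CREX libraries Mmp2 was at 9.97, 11.3, 10.3 and 11.3 CPM, close to the CR libraries, and in the EX libraries at 18.1, 19.8, 54.3 and 17.1 CPM, where EX library 3 stood apart. Its gene spans chr8:92827291-92853420 on the plus strand.

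Mmp9, the other gelatinase and a product of neutrophils and macrophages among others, was scarce. Control BAT held 25, 43 and 57 counts (1.09, 1.73 and 2.34 CPM) and CR BAT 11, 20, 7 and 6 counts (0.476, 0.954, 0.287 and 0.255 CPM). All CR libraries were below all control libraries, a 3.53-fold difference (log2 -1.82, SE 0.43, adjusted p = 0.0156). In trained mice the levels were 1.53, 1.06, 1.23 and 2.74 CPM in EX and 0.675, 0.398, 0.496 and 0.595 CPM in CREX. Of 8 neutrophil markers 7 were in the table and none passed the filter in BAT, their sum being at most 0.452 CPM in control, 0.205 CPM in CR, 1.02 CPM in EX and 1.23 CPM in CREX libraries.

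Mmp14, the membrane-bound protease that activates Mmp2, was at 7.70, 7.91 and 8.05 CPM in control BAT and at 3.42, 3.24, 2.87 and 2.13 CPM in CR BAT. The control libraries lay close together and above every CR library, a 2.7-fold difference (log2 -1.44, SE 0.16, adjusted p = 0.000313). CREX libraries stood at 4.33, 3.63, 3.89 and 3.57 CPM and EX libraries at 6.80, 7.18, 34.6 and 5.90 CPM, the highest being EX library 3.

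Mmp15, a second membrane-type protease, fell from 16.5, 16.3 and 15 CPM in control BAT to 9.08, 9.34, 9.28 and 11.2 CPM in CR BAT (log2 fold change -0.71, SE 0.10, adjusted p = 0.0011). With EX it was at 12.9, 12.8, 13.4 and 12.6 CPM, between the control and the restricted libraries without touching either, and with CREX at 9.65, 8.72, 10.6 and 10.3 CPM. EX library 3 did not stand apart for this gene.

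Among the inhibitors, Timp2, which both blocks MMPs and bridges Mmp14 to the Mmp2 precursor, was downregulated with them. It was at 34.3, 27.9 and 21.7 CPM in control BAT and at 17.8, 19.8, 17.9 and 16.4 CPM in CR BAT, with no overlap and a log2 fold change of -0.64 (SE 0.13, adjusted p = 0.0095). The CREX libraries at 19.7, 21.1, 19.6 and 23.4 CPM overlapped the lowest control and EX values, and the EX libraries were spread over 27.6, 39.0, 67.5 and 22.1 CPM.

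Timp3, the inhibitor that binds to the matrix and also blocks ADAM and ADAMTS proteases, moved the other way. It rose from 137, 78.1 and 94.0 CPM in control to 188, 168, 157 and 173 CPM in CR BAT (1.67-fold, log2 0.74, SE 0.18, adjusted p = 0.0235). EX libraries were at 79.8, 123, 107 and 122 CPM and CREX libraries at 201, 173, 161 and 138 CPM, so that restricted and free-fed libraries did not overlap, though the gap between 138.5 and 137.2 CPM was narrow.

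Timp4, an inhibitor known from heart, muscle and fat, rose in BAT with CR (2.01-fold, log2 1.01, SE 0.23, adjusted p = 0.0262). Control libraries held 39.9, 19.8 and 25.4 CPM and CR libraries 54.0, 58.5, 51.8 and 62.9 CPM. The EX libraries (18.4, 33.1, 28.2 and 42.5 CPM) overlapped the control libraries, and the CREX libraries (64.5, 56.5, 44.4 and 63.7 CPM) around the CR libraries, 1 of them below all 4 of these.

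DESeq2 also called 7 members in sedentary BAT. Without a filter on low counts 5 were called, and Timp3 and Timp4 missed the threshold (adjusted p = 0.0725 and 0.066). The Timp3 call was lost without CR library 1, 2 or 4 or control library 2 or 3 (log2 0.57 to 0.74) and the Timp4 call without CR library 1, 2 or 4 or control library 3 (0.94 to 1.02), the Mmp9 call without control library 2 or 3 (-1.82 and -1.53) and the Timp2 call without control library 1 (-0.47). In a fit over all 4 BAT groups, which holds EX library 3, Mmp2, Mmp14 and Timp2 missed the threshold (adjusted p = 0.113, 0.0855 and 0.154).

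CREX against EX in BAT asked the same of trained mice. Of 9 members tested, Mmp9 was downregulated (3.00-fold, log2 -1.59, SE 0.34, adjusted p = 0.0228) and Timp3 upregulated (1.56-fold, log2 0.64, SE 0.16, adjusted p = 0.0386), where 2.63% of 13251 genes were downregulated and 1.86% upregulated. Mmp15 was 1.32-fold lower (log2 -0.40, SE 0.08, adjusted p = 0.0221), under the fold change asked for. The other log2 fold changes did not pass: Mmp2 -1.35 (SE 0.41, adjusted p = 0.0929), Mmp14 -1.82 (SE 0.66, adjusted p = 0.145), Timp2 -0.90 (SE 0.34, adjusted p = 0.151), Timp4 0.90 (SE 0.25, adjusted p = 0.0689), Mmp19 -0.39 (SE 0.16) and Mmp3 0.01 (SE 0.29).

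Without EX library 3 the same comparison called 3 members, all lower with CREX: Mmp2 (-0.78, SE 0.09, adjusted p = 0.00386), Mmp14 (-0.78, SE 0.14, adjusted p = 0.0164) and Mmp9 (-1.70, SE 0.36, adjusted p = 0.0307), with 2.90% of all genes called. Timp3 then reached 0.64 with an adjusted p of 0.0884. Timp2 stood at -0.50 (SE 0.18, adjusted p = 0.147) and Mmp15 at -0.38 (SE 0.10, adjusted p = 0.0596). Timp4 stood at 0.87 (SE 0.29, adjusted p = 0.156), Mmp19 at -0.48 (SE 0.16) and Mmp3 at 0.17 (SE 0.30), and none of these passed. The Mmp9 call was lost without CREX library 2, 3 or 4 (log2 -1.46, -1.54 and -1.63) and the Timp3 call also without CREX library 1, 2 or 3 or EX library 1 or 2 (0.53 to 0.71), while leaving out EX library 4 brought Timp4 past the threshold (1.11, adjusted p = 0.031). DESeq2 called 5 members in this comparison and 809 genes in all, against 594 genes by edgeR.

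**Figure D2:**
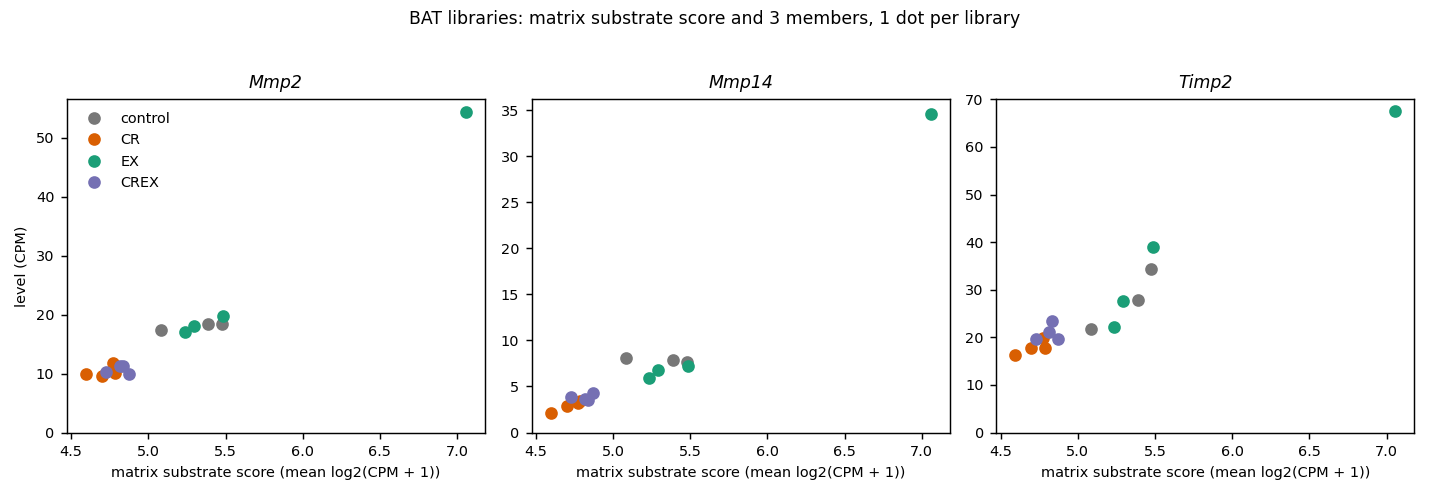
Level (CPM) of Mmp2, Mmp14 and Timp2 in the 15 BAT libraries against the matrix substrate score, the mean of log2(CPM + 1) over 10 matrix genes, colored by group. EX library 3 lies at the top right of each panel (score 7.06), and the restricted libraries lie at the lower left (scores 4.60 to 4.87).

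Averaged over sedentary and trained mice, CR downregulated 4 members in BAT and upregulated 2, and 7.83% and 3.96% of 13922 genes changed in these directions. The log2 effects were -1.07 (SE 0.23) for Mmp2, -1.70 (SE 0.29) for Mmp9, -1.63 (SE 0.37) for Mmp14, -0.77 (SE 0.20) for Timp2, 0.69 (SE 0.13) for Timp3 and 0.95 (SE 0.18) for Timp4. Mmp15, at -0.55 (SE 0.06, adjusted p = 1.28e-05), had the smallest p of the family but lay under the fold change asked for. Without EX library 3, the effect of Mmp14 was -1.11, of Mmp2 -0.79 and of Timp2 -0.57, which for Timp2 ended the call by its size (adjusted p = 0.00383). Leaving out CR library 4 took Mmp15 past the fold change (-0.59).

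Restricted and free-fed BAT libraries, 8 and 7 in number, did not overlap for 6 members, with 4 below (Mmp2, Mmp9, Mmp14 and Mmp15) and 2 above (Timp3 and Timp4). Over all genes, 4.4% lay below and 4.07% above in this way. For Timp2 they overlapped, with restricted libraries from 16.4 to 23.4 CPM and free-fed libraries from 21.7 to 67.5 CPM. These counts use the values of the 2 comparisons above and add no evidence to them.

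In SkM, 7 of the 10 members passed the filter, and Mmp3 (0 to 5 counts), Mmp9 (1 to 67 counts) and Timp1 (0 to 12 counts) did not. With CR in sedentary mice, Mmp2 and Mmp15 were downregulated and Timp3 was upregulated, while 5.32% of 13173 genes were downregulated and 4.27% upregulated. Timp4 (log2 0.68, SE 0.23, adjusted p = 0.0815), Mmp14 (-0.60, SE 0.24, adjusted p = 0.121), Timp2 (-0.21, SE 0.12) and Mmp19 (0.11, SE 0.38) did not pass. The median log2 fold change was -0.21 over the 7 members and 0.0050 over all genes.

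**Figure D3:**
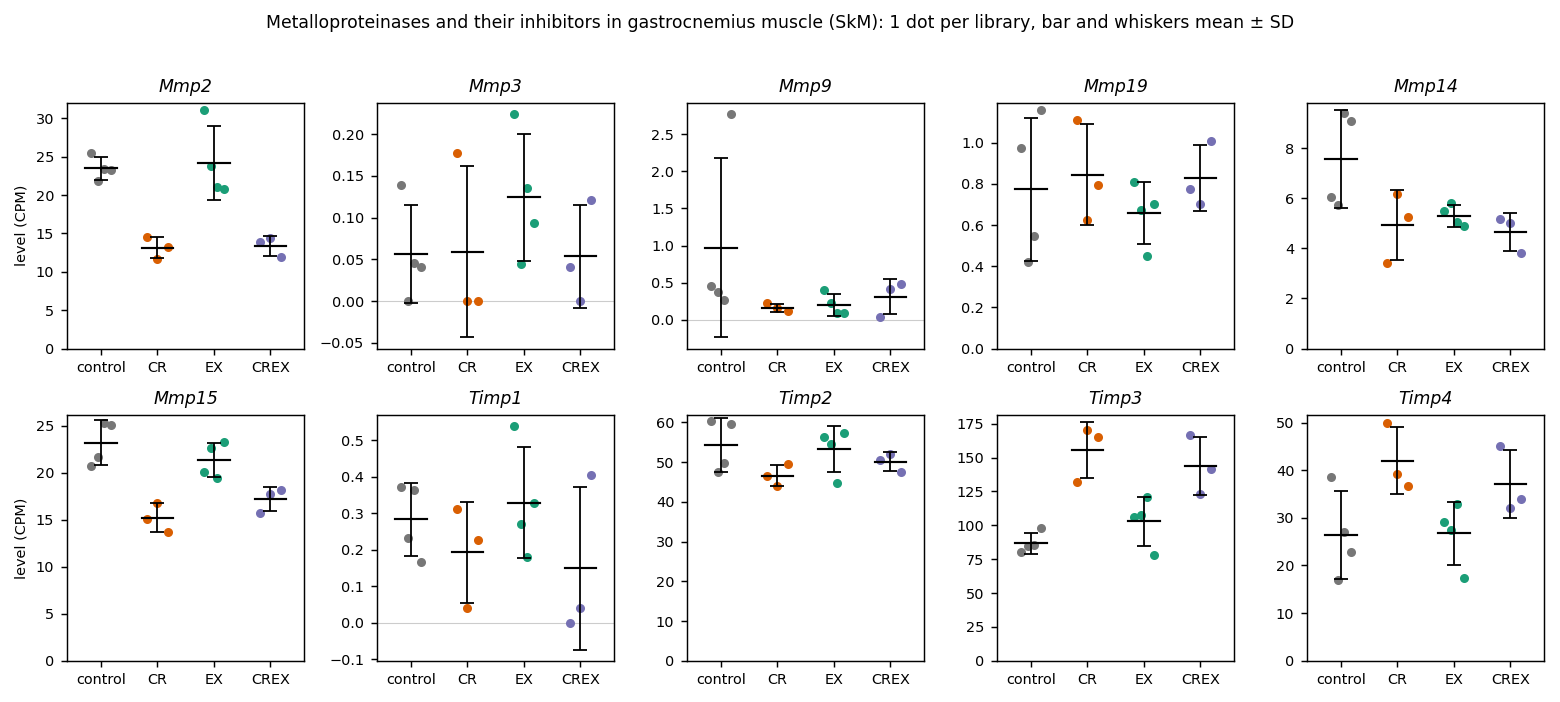
Level (CPM, linear axis) of each member in every SkM library, by group, with the mean and SD as bar and whiskers. The CR and CREX libraries lie below all others for Mmp2 and Mmp15 and above all others for Timp3, and control library 4 is the single high value of Mmp9.

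Mmp2 in SkM stood at 25.5, 21.8, 23.4 and 23.3 CPM in control libraries and at 14.5, 11.7 and 13.2 CPM in CR libraries, a gap of several CPM with no overlap (1.78-fold lower, log2 -0.83, SE 0.11, adjusted p = 0.00135). In trained mice it fell from 31.1, 23.8, 21 and 20.8 CPM with EX to 13.9, 14.4 and 11.9 CPM with CREX (1.82-fold, log2 -0.86, SE 0.16, adjusted p = 0.0118). This was the only member called in CREX against EX in SkM, where 5.17% of 13112 genes were downregulated and 3.7% upregulated. The calls for Mmp2 in SkM were kept with each library left out in turn.

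Mmp15 was at 20.7, 21.7, 25.3 and 25.1 CPM in control SkM and at 15.1, 16.8 and 13.7 CPM with CR (1.52-fold lower, log2 -0.60, SE 0.12, adjusted p = 0.00882). The fold change sat just past the one asked for, and the call was lost without CR library 3 or control library 3 or 4 (log2 -0.54, -0.56 and -0.57) by size alone. In trained mice it was at 20.1, 22.7, 19.5 and 23.2 CPM with EX and at 15.7, 17.7 and 18.2 CPM with CREX, again without overlap, and the difference did not pass (log2 -0.32, SE 0.10, adjusted p = 0.0602).

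Timp3 rose in SkM from 79.9, 84.6, 85.1 and 97.9 CPM in control to 132, 170 and 165 CPM with CR (1.80-fold, log2 0.85, SE 0.13, adjusted p = 0.00214). Every CR library lay above every control library, and the call was kept with each library left out in turn. EX libraries were at 106, 108, 121 and 77.9 CPM and CREX libraries at 166, 123 and 141 CPM, which did not overlap, and this difference did not pass (log2 0.47, SE 0.17, adjusted p = 0.0851). Timp4, at 38.7, 16.9, 27.0 and 22.8 CPM in control and 49.9, 39.1 and 36.7 CPM in CR libraries, passed with DESeq2 (log2 0.69, adjusted p = 0.0353) and without control library 1 (0.92, adjusted p = 0.0137).

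Averaged over sedentary and trained mice, the CR effect in SkM was -0.85 for Mmp2 (SE 0.10, adjusted p = 2.52e-05) and 0.66 for Timp3 (SE 0.11, adjusted p = 0.000311), and these were the 2 members called. The shares of 13610 genes that changed were 8.13% downward and 5.99% upward. Mmp15 (-0.46, adjusted p = 0.000542) and Timp4 (0.57, adjusted p = 0.024) had adjusted p-values under the threshold and fold changes under the one asked for. Timp4 was called when CR library 2 or 3, control library 1, CREX library 2 or 3 or EX library 1 or 3 was left out (0.59 to 0.70). In SkM the restricted and free-fed libraries, 6 and 8, did not overlap for 3 members, with Mmp2 and Mmp15 below and Timp3 above, next to 5.87% of genes below and 4.81% above.

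**Figure D4:**
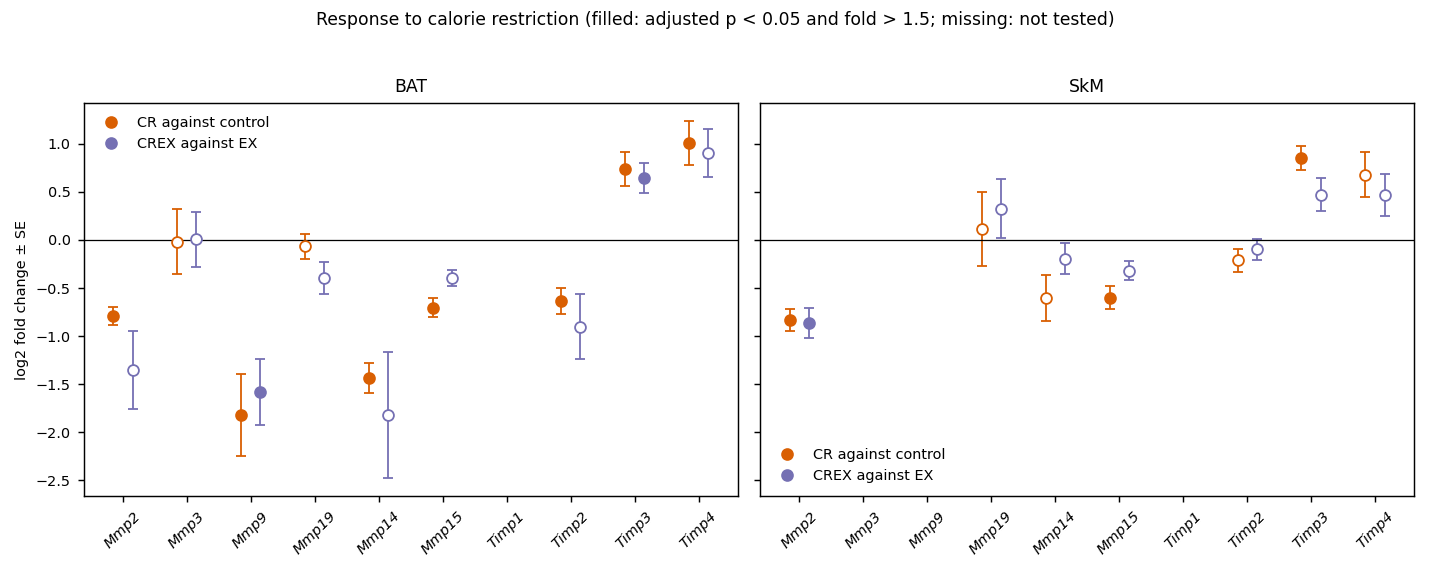
Log2 fold change (± SE) of each member in the sedentary (CR against control) and the trained comparison (CREX against EX) of each tissue, with filled points for DEGs. In BAT the points run from -1.82 for 2 of the proteases to 1.01 for Timp4, and in SkM Mmp2 is filled in both comparisons at -0.83 and -0.86.

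Whether the tissues differed in their response was tested directly, as the CR effect in SkM minus that in BAT. None of 9 members passed in sedentary mice, with 7.58% of 14369 genes passing, nor in trained mice, with 5.58% of 14410 genes passing. Mmp3 and Mmp9 entered these tests through BAT only. In SkM both failed the filter (0 to 5 and 1 to 67 counts), so a response there could hardly be measured (SE 1.17 and 1.18 in sedentary mice). At an unadjusted p under 0.05 there were 2 and 3 of the 9 members, Mmp9 among the 3, beside 3336 of 14369 and 3199 of 14410 genes. DESeq2 called 0 members in both, beside 1644 and 1375 genes. In sedentary mice the differences with the smallest p belonged to Mmp14 (0.82, 95% interval 0.23 to 1.42, adjusted p = 0.113) and Timp2 (0.42, 0.05 to 0.79, adjusted p = 0.192), both the less negative in SkM. In trained mice without EX library 3 of BAT, 0 members passed as well (3.43% of genes), and the difference of Mmp14 was 0.56 (SE 0.21, adjusted p = 0.14) in place of 1.62 (SE 0.73, adjusted p = 0.215). For Mmp2 and Timp3 in sedentary mice the intervals of the difference were -0.31 to 0.22 and -0.32 to 0.53. Mmp14 passed when CR library 1 of SkM was left out (1.02, adjusted p = 0.0323), and Mmp9 passed in trained mice without CREX library 1 of SkM (2.68, adjusted p = 0.0176), though SkM held 1 to 12 counts of Mmp9 in the EX and CREX libraries.

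EX on its own was tested in EX against control and CREX against CR. In BAT, 0 members were DEGs in either comparison, with 0% and 0.00763% of all genes called. The unadjusted p was under 0.05 for 3 of 9 members in each, beside 972 of 13407 and 1001 of 13112 genes. DESeq2 called 0 members, beside 39 and 30 genes. With EX, Mmp15 was 1.23-fold lower in BAT (log2 -0.30, SE 0.07, adjusted p = 0.365), with all 4 EX libraries below all 3 control libraries, and the value was -0.32 (SE 0.09, adjusted p = 0.572) without EX library 3. The log2 difference of Mmp3 was 0.80 (SE 0.30, adjusted p = 0.627) against control and 0.82 (SE 0.32, adjusted p = 0.619) against CR, at 0.963, 1.69 and 0.945 CPM in control, 1.47, 1.62, 0.657 and 1.02 CPM in CR, 2.27, 1.47, 2.75 and 1.87 CPM in EX and 2.98, 1.19, 2.11 and 2.10 CPM in CREX. The groups overlapped and neither difference passed, and without EX library 3 the value against control was 0.64 (SE 0.30, adjusted p = 0.82).

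In EX against control in BAT, the values of Mmp14, Mmp2 and Timp2 depended on EX library 3. Mmp14 stood at 0.79 (SE 0.76) against control with it and at -0.25 (SE 0.12) without it, Mmp2 at 0.60 (SE 0.48) and 0.03 (SE 0.09), and Timp2 at 0.48 (SE 0.43) and 0.08 (SE 0.26). Timp3 and Timp4 differed by 0.07 and 0.11 in EX against control, with 95% intervals of -0.39 to 0.52 and -0.59 to 0.81, and by 0.07 and 0.15 without EX library 3. Mmp19 differed by 0.31 (SE 0.13, adjusted p = 0.686) with it and by 0.40 (SE 0.11, adjusted p = 0.572) without it. CREX against CR does not hold that library, and there Mmp14 (0.40, SE 0.17, adjusted p = 0.64) and Timp2 (0.22, SE 0.09, adjusted p = 0.619) did not pass. In SkM, 0 members were called in EX against control (0.0775% of genes) and in CREX against CR (0% of genes), and 0 by DESeq2. At an unadjusted p under 0.05 there were 1 and 0 members, beside 884 of 12907 and 477 of 13068 genes. The largest of these differences in SkM was that of Mmp14 with EX (-0.51, SE 0.17, adjusted p = 0.454).

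The interaction of CR with EX was called for 0 members in BAT and 0 in SkM, with 0% of 13922 genes and 0% of 13610 genes called. At an unadjusted p under 0.05 there was 1 member in BAT (Mmp15, 0.31, SE 0.12, adjusted p = 0.832) and 0 in SkM, and DESeq2 called 0. Beside these stood 800 of the 13922 genes in BAT and 669 of the 13610 in SkM at an unadjusted p under 0.05. For Timp3 the interaction was -0.09 in BAT (95% interval -0.59 to 0.41) and -0.36 in SkM (-0.78 to 0.05). Without EX library 3, 0 members were called in BAT, and the interaction of Mmp14 was 0.66 (SE 0.21, adjusted p = 0.74) in place of -0.39 (SE 0.74) and that of Mmp2 0.02 (SE 0.13) in place of -0.56 (SE 0.46), while Mmp15 stood at 0.33 (SE 0.13, adjusted p = 0.754).

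Because Timp3 and Mmp2 moved apart, their counts were set against each other within each library, a ratio that no scaling between libraries can change. In BAT, a library held 7.48, 4.26 and 5.41 Timp3 counts per Mmp2 count in control, 18.5, 14.2, 16.3 and 17.4 in CR, 4.41, 6.19, 1.97 and 7.14 in EX and 20.1, 15.4, 15.7 and 12.3 in CREX mice. In SkM it was 3.13, 3.87, 3.64 and 4.20 in control, 9.10, 14.6 and 12.5 in CR, 3.42, 4.52, 5.74 and 3.74 in EX and 12, 8.58 and 11.9 in CREX mice. Restricted and free-fed libraries did not overlap in either tissue. The pair was chosen for its change, so this is a description without a test.

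**Figure D5:**
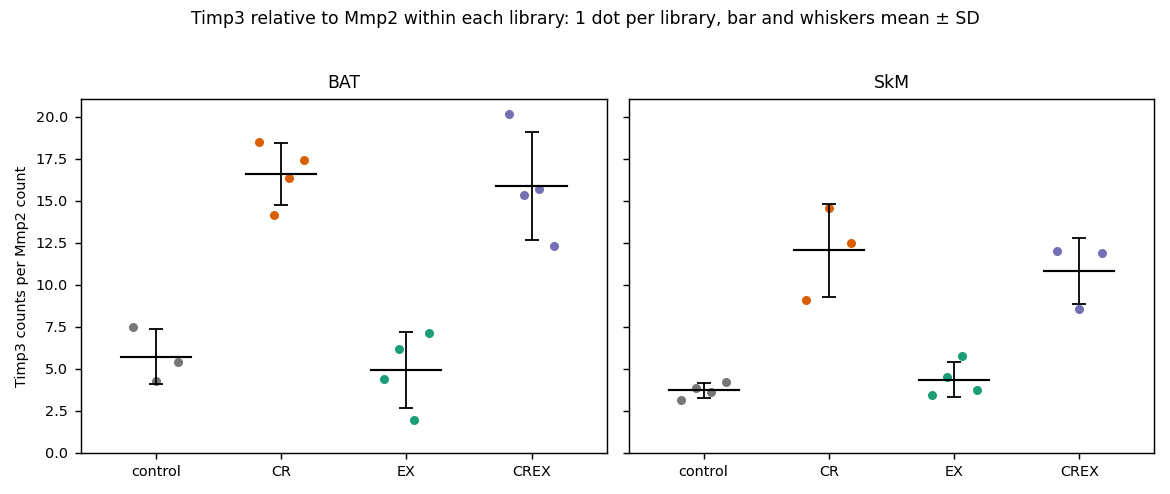
Timp3 counts per Mmp2 count in every library of BAT and SkM, by group, with the mean and SD as bar and whiskers (linear axis from 0). All restricted libraries lie at 8.58 or higher, all free-fed libraries at 7.48 or lower.

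Other ratios were set up in the same way. Timp4 per Timp3 count had medians of 0.271 in control, 0.340 in CR, 0.267 in EX and 0.324 in CREX BAT, with overlapping ranges. Mmp14 per Timp2 count had a median of 0.284 in control and 0.162 in CR BAT, without overlap, and EX library 3 held the highest value of 0.512. In trained BAT the ratio overlapped, at 0.184 to 0.512 in EX and 0.153 to 0.220 in CREX libraries. It also overlapped in SkM between control (0.100 to 0.189) and CR (0.0738 to 0.140) and between EX (0.0851 to 0.112) and CREX libraries (0.08 to 0.102). Summed per kilobase, the 4 TIMPs exceeded the 6 MMPs by 1.2- to 2.10-fold in control, 2.96- to 3.26-fold in CR, 1.12- to 1.82-fold in EX and 2.73- to 3.05-fold in CREX BAT. In SkM the sums stood at 2.10- to 2.50-fold in control, 4.53- to 5.19-fold in CR, 2.31- to 2.94-fold in EX and 3.90- to 5.04-fold in CREX libraries. These are sums of RNA, and neither precursor nor active protease was measured.

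Timp1, the inhibitor most often induced by inflammation, was at the limit of detection. It held 4, 4 and 6 counts in control, 2, 6, 4 and 4 in CR, 3, 4, 70 and 0 in EX and 8, 2, 4 and 2 in CREX BAT, and 0 to 12 counts in SkM. The 70 counts were again in EX library 3. A difference between groups was not detectable at this depth.

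Mmp19 was expressed in BAT without a passed change in any comparison there (14.4 to 21.2 CPM in CR, 17.4 to 21 CPM in control, 19.4 to 28.2 CPM in EX and 13.2 to 21.7 CPM in CREX libraries). Its value carries an annotation caveat, since 1001 of its 3533 exon bases (28.3%) in GENCODE M21 are shared with Tmem198b and Gm47093 on the opposite strand. Whether counting used the strand is not given in the sources used here, so reads from such overlaps cannot be told apart.

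The same caveat touches Timp3 and Timp4, which with Timp1 lie inside synapsin genes. Timp1 lies in an intron of Syn1, Timp3 in Syn3 (chr10:86300372-86349506, plus strand) and Timp4 in Syn2 (chr6:115241892-115252205, minus strand), each on the strand opposite to the host, and the hosts encode proteins of synaptic vesicles. Timp3 shares 1733 of its 8144 exon bases (21.3%) with Syn3, and Timp4 shares 90 of 5894 (1.53%) with Syn2, while Timp1 shares 0. Syn3 stayed at 31 to 47 counts in all BAT libraries, where Timp3 had 1725 to 5053.

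Syn2, in contrast, was upregulated along with Timp4 in sedentary BAT. Syn2 was also called in trained BAT and sedentary SkM, where Timp4 did not pass (adjusted p = 0.0689 and 0.0815). In BAT Syn2 was at 67, 57 and 74 counts in control, 211, 228, 157 and 181 in CR, 70, 60, 95 and 105 in EX and 203, 178, 213 and 157 in CREX libraries, and it was a DEG in both comparisons (log2 1.63, SE 0.19, adjusted p = 0.000466, and 1.10, SE 0.18, adjusted p = 0.0065). In SkM it had 8 to 12 counts in control and 23 to 37 in CR libraries (log2 1.32, SE 0.32, adjusted p = 0.0211), a call lost without CR library 1 or control library 4 (1.03 and 1.17), and it did not pass in trained mice (0.58, SE 0.40, adjusted p = 0.338). Timp4 counts exceeded those of Syn2 in the BAT libraries (397 to 1624 against 57 to 228), and what part of the Syn2 counts came from Timp4 transcripts was not tested.

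The promoters of the members that changed in BAT are shown next, since these genes moved together or apart. RefSeq sequences of GRCm38.p6 around the gene start (250 bases before and 50 after) matched 7 of the 10 members, and Mmp2, Mmp9 and Mmp19 did not match. RefSeq and GENCODE M21 place some starts differently. By GENCODE the stretch printed for Timp2 lies wholly, and those for Timp3 and Mmp15 partly, inside the gene. The windows were searched on both strands for a GC box (GGGCGG), an AP-1 site (TGANTCA) and a FOXO site (GTAAACA), which 35.7%, 7.81% and 3.65% of all 32851 promoters hold. The GC box was found in Mmp14 (2 matches), Timp3 (2 matches), Mmp15, Timp2 and Timp1 (1 match each), an AP-1 site in Mmp3 alone, and a FOXO site in none of the 7. The 120 bases before the start are printed 5′ to 3′ on the gene's strand, with GC boxes in capitals, first for 3 members downregulated in BAT at chr14:54431478-54431597 (Mmp14, plus strand), chr8:95352176-95352295 (Mmp15, plus) and chr11:118355412-118355531 (Timp2, minus), then for the 2 upregulated ones at chr10:86300292-86300411 (Timp3, plus) and chr6:115252206-115252325 (Timp4, minus).
Mmp14: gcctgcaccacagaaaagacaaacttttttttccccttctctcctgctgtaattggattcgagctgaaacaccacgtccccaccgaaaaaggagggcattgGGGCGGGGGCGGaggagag
Mmp15: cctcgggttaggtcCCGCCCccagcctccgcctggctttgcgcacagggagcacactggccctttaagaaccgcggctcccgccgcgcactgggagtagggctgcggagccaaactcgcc
Timp2: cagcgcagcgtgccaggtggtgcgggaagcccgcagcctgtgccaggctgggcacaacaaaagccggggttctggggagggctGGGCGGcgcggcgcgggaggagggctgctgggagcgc
Timp3: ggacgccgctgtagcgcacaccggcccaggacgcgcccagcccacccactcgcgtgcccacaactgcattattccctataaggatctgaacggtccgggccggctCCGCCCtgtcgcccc
Timp4: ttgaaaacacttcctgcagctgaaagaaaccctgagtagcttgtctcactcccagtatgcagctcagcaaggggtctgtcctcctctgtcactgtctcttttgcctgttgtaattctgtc

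Timp3 thus shared the GC box with Mmp14, Mmp15 and Timp2, which moved the other way, and Timp4, which moved with it, had none in its window. These matches are descriptions of letters in a window, not of binding.

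Proteases and regulators around the family were counted from gene lists. In sedentary BAT, CR downregulated 7 of 12 tested ADAMTS proteases (which cleave proteoglycans) and upregulated 0, with a median log2 fold change of -0.84. Among them were Adamts1 (-1.23, SE 0.17, adjusted p = 0.00116), Adamts5 (-1.22, SE 0.19, adjusted p = 0.00189) and Adamts9 (-0.91, SE 0.13, adjusted p = 0.00113). In trained BAT 0 of 10 passed (median -0.38), in a comparison that holds the EX library of unusual matrix RNA. Calls without that library were not tested, so this 0 does not show that the fall was absent in trained mice. In SkM, 2 of 12 were downregulated in each comparison, Adamts1 in both (-0.92 and -0.76) with Adamts15 (-1.15) in sedentary and Adamts5 (-0.70) in trained mice, and Adamts20 was upregulated in both (1.61 and 1.21).

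Of the ADAM sheddases, Adam19 was downregulated in both tissues in sedentary mice. It was 1 of 8 tested in BAT (-1.26, SE 0.25) and 1 of 6 in SkM (-1.06, SE 0.21). In trained mice 0 passed. No other MMP of the list (4 of 12 in the table were tested in each comparison) was called in either tissue. For both lists, the trained BAT comparison holds the EX library of unusual matrix RNA, and calls without it were not tested.

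Among further regulators of MMPs, 1 of 8 rose and 1 of 8 fell in sedentary BAT, namely Spock2, a matrix proteoglycan (log2 0.97, SE 0.17, adjusted p = 0.00344), and Thbs1, a thrombospondin (-1.39, SE 0.23, adjusted p = 0.00277). Spock2 was also upregulated in SkM in sedentary (1.72, SE 0.23, adjusted p = 0.0013) and trained mice (1.83, SE 0.28, adjusted p = 0.00888), beside lower Cd44 (-0.73) in the first and lower Thbs2 (-0.86) in the second. Of 7 genes for cathepsins and cystatin C, Ctss passed in sedentary BAT (-0.89, SE 0.27, adjusted p = 0.0408) and Ctsk in trained SkM (-1.37, SE 0.37, adjusted p = 0.0374), both downward. Of 9 tested inducers of MMP genes, Jund (-0.90) and Junb (-0.95) were downregulated in sedentary BAT, Junb alone of 8 in trained BAT (-0.75), and in sedentary SkM Junb (-1.13) and Fos (-1.55) were downregulated and Jun upregulated (0.80). In trained SkM 0 of 9 passed.

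The matrix genes on which these proteases act were counted in the same way. In sedentary BAT, 5 of 10 were downregulated, among them Col1a1 (log2 -1.29, SE 0.12), Col4a1 (-0.80, SE 0.06) and Col4a2 (-0.76, SE 0.07), with a median of -0.74 over the 10. In trained BAT 0 of 10 passed (median -0.78), in a comparison that holds EX library 3. The 10 genes summed to 459 to 490 CPM in CREX libraries, 2025 CPM in EX library 3 and 676 to 758 CPM in the other EX libraries. Their calls without that library were not tested, so the count of 0 does not show that the change was absent in trained mice. In SkM, 6 of 10 were downregulated in sedentary and 5 of 10 in trained mice, with Col3a1 at -2.63 (SE 0.13) and -2.20 (SE 0.27) and Col1a1 at -2.33 (SE 0.20) and -2.27 (SE 0.31).

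Some markers of the other cell types in the tissue changed too, and in bulk tissue fewer cells of a type and less RNA per cell cannot be told apart. In BAT the 7 fibroblast markers summed to 53.1 to 81.2 CPM in control, 37.7 to 50.8 CPM in CR, 62.0 to 130.04 CPM in EX and 46.6 to 50.8 CPM in CREX libraries, none of the markers being at 0 throughout a group. Of these 7, Lum (log2 -0.75) and Dpt (-0.89) were downregulated with CR and Dpt (-1.04) with CREX. The 7 endothelial markers summed to 339 to 366 CPM in control, 232 to 300 CPM in CR, 285 to 336 CPM in EX and 242 to 285 CPM in CREX libraries, and 1 of the 7 passed with CR (Cldn5, -1.43). Smooth muscle and pericyte markers (6 genes, 2 of them, Pdgfrb and Acta2, downregulated with CR at -0.67 each) and macrophage markers (7 genes, 1, Mrc1, downregulated with CR at -0.60) also had negative medians (-0.50 and -0.47). Acta2 (-0.95) passed with CREX too, as did Ucp1, the uncoupling protein of brown adipocytes, in both comparisons (-1.02 and -0.99), while the lipid droplet gene Plin1 passed with CR (-0.67), out of 7 brown adipocyte markers. The median log2 fold change of these 7 was -0.05 with CR and -0.17 with CREX, so the list as a whole moved little. Schwann cell markers (3 genes) and the tendon marker that could be tested did not pass, and mesothelial markers, none of them tested, summed to at most 2.14 CPM, in EX library 3. Their part in the changes of Mmp2, Mmp9, Mmp14, Mmp15 and Timp2 was not tested.

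In SkM the fibroblast markers summed to 63.6 to 94.5 CPM in control, 49.6 to 66.6 CPM in CR, 60.5 to 91.3 CPM in EX and 46.7 to 66.7 CPM in CREX libraries. Lum (-0.60 and -1.03) and Dpp4 (-1.20 and -1.06) were downregulated in both comparisons. The endothelial markers summed to 233 to 302 CPM in control, 155 to 193 CPM in CR, 233 to 291 CPM in EX and 112 to 213 CPM in CREX libraries, with 3 of 7 downregulated in sedentary mice (Kdr, Emcn and Cdh5, from -1.27 to -0.66) and 2 of 7 in trained mice (Emcn, -1.0, and Cdh5, -0.96). Muscle fibre markers were higher for Actn3 (1.30 and 1.5) in both and Mylpf (0.95) in sedentary mice. The tendon markers summed to 6.58 to 15.3 CPM in control and 7.82 to 23.9 CPM in CR libraries, where 0 of 3 tested passed (median 0.36). In trained mice they summed to 14.7 to 32.1 CPM with EX and 8.37 to 11.2 CPM with CREX, with Fmod (-2.43) and Tnmd (-2.26) downregulated and Scx (1.06) upregulated of 3 tested. Of the smooth muscle markers Cnn1 (-1.04) passed in sedentary mice, and no macrophage, brown adipocyte, Schwann cell or mesothelial marker passed in either. Whether these shifts bear on Mmp2, Mmp15 or Timp3 in SkM was not tested.

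Muscle RNA in the BAT samples differed between libraries and was higher in most trained ones. The muscle fibre score, the mean of log2(CPM + 1) over 10 genes, was 5.53, 2.29 and 0.347 in control, 1.34, 2.24, 6.66 and 5.67 in CR, 6.18, 8.06, 8.09 and 0.636 in EX and 6.07, 6.50, 8.68 and 7.18 in CREX libraries. All 4 CREX libraries lay above all 3 control libraries, the EX libraries spanned nearly the whole range, and the part of muscle RNA in the EX comparisons was not tested apart from the covariate fit. Without the 3 libraries of CR and control with a score above 5, leaving 2 against 2, 6 members stayed DEGs with CR. In that fit 1708 genes were called in all, against 1430 in the full comparison. Timp3 was then at 1.04 (SE 0.12, adjusted p = 0.000238), Timp4 at 1.30 (SE 0.12, adjusted p = 0.000103), Mmp2 at -0.71 (SE 0.13), Mmp9 at -1.53 (SE 0.37), Mmp14 at -1.27 (SE 0.17) and Mmp15 at -0.77 (SE 0.13), and Timp2 missed the threshold (-0.41, SE 0.14, adjusted p = 0.0582). With the score as a covariate, CREX against EX called 4 members and 699 genes in all, against 594 genes without it.

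The genes whose levels ran most like those of a member were ranked by Pearson correlation of log2 CPM across the libraries of a tissue, for the member with the smallest p in the averaged CR effect. For Mmp15 in BAT they were Maml3, Slc40a1, Dcaf4, Syndig1 and Pxdn, with r from 0.927 to 0.936 over 15 libraries. For Mmp2 in SkM they were Col1a1, Sparc, Col1a2, Col6a1 and Serpinf1, the first 4 of them matrix genes, with r from 0.952 to 0.975 over 14 libraries. These libraries share the CR groups and the tissue, so the correlations describe the common pattern only.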

How the data were processed

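RNA-seq of total RNA (Trizol, BGIseq500, paired end) was deposited by the authors as 1 table of RSEM expected counts per gene, not normalized, made with STAR 2.7.10a and RSEM 1.2.28 on mm10, per the submitters' processing notes. The annotation and strand setting of the counting are not given in the sources used here. The expected counts were rounded to whole numbers. Groups came from the sample labels.

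Each pairwise comparison was fitted on its own groups in edgeR 4.0.16 (R 4.3.3) with filterByExpr (min.count 10), TMM factors and the robust quasi-likelihood test, and p-values were Benjamini-Hochberg adjusted over all genes tested. The averaged CR effect and the interaction were fitted over the 4 groups of a tissue, and tissue differences over both tissues. DEGs passed 2 thresholds, adjusted p below 0.05 and fold change over 1.5, with no fold minimum for interactions and tissue differences. SE is the log2 fold change over the root of F. Simulated counts were called at adjusted p below 0.05 alone, without the fold minimum. Modelled on CR against control in BAT (13323 genes), the test found 68 of 100 2-fold and 67 of 100 1.7-fold changes. For CREX against EX in SkM (13112 genes) it found 58 and 43 of 100. In both, 0 were of wrong sign, and there were 10 and 8 false calls among the unchanged genes.

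The members and gene lists were chosen with earlier results of these data known. All 10 members are named in each comparison where they matter, with up to 3 called genes of the smallest p per other list, the synapsin hosts and the 5 most similar genes. Alternatives were RLE factors, other count filters, DESeq2 1.42.0, a replicate block, 1 fit over 4 groups, a muscle score covariate, other thresholds and leaving out each library. The fit without BAT libraries of high muscle score was added after seeing the data. Replicate libraries all differed beyond sampling noise. Coordinates are GRCm38 (mm10) from GENCODE M21, except for the promoters, which were placed by RefSeq starts. 1 gene list is not reported here.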

Additional observations from a re-analysis of the deposited data

Results flagged for a closer look

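Of 50 pairs of a member and a group with 4 libraries, 5 had 1 library far from the other 3 (Dixon's test at 95%), where chance gives about 1 in 20. In BAT, EX library 3 stood alone for Mmp2 (54.3 CPM, others 17.1 to 19.8 CPM), Mmp14 (34.6 CPM, others 5.90 to 7.18 CPM) and Timp1 (2.88 CPM from 70 counts, others 0 to 0.184 CPM). The same library had a matrix substrate score of 7.06 and a fibroblast marker sum of 130.04 CPM, and their part in these values was not tested. CR library 4 of BAT stood above the others for Mmp15 (11.2 CPM, others 9.08 to 9.34 CPM). In SkM, control library 4 held 67 counts of Mmp9 (2.77 CPM, others 0.273 to 0.463 CPM).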

How the results depend on the processing

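Over 65 results for single genes and 1128 alternative settings, 1045 kept direction and side of the threshold, 81 changed side and 2 changed direction, and none of the 29 called results changed direction. The 2 reversals were EX against control in BAT: Timp2 with the muscle score as covariate (-0.0352, against 0.48) and Mmp14 when EX library 3 was left out (-0.249, against 0.79; the range with each library left out was -0.249 to 1.04).

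In CR against control in BAT, 7 members were called, but 4 with the replicate block, 4 in 1 fit over all groups and 5 without a count filter. In CREX against EX in BAT, 2 were called, but 1 without a count filter, 1 with at least 10 counts per library, 1 with the replicate block, 5 with DESeq2, 5 in 1 fit over all groups, 4 with the muscle covariate and 6 by unadjusted p. The calls over all genes moved too, from 594 to 572, 554, 465, 809, 880, 699 and 1238 in this order. By unadjusted p, with the fold minimum where one was used, there were 1 member in EX against control, 1 in CREX against CR and 1 in the interaction in BAT, 5 (against 3) in CR against control in SkM, and 2 and 3 in the tissue differences of sedentary and trained mice. By the same rule, all genes numbered 272, 259 and 800 in BAT, 1829 (against 1264) in SkM, and 3336 and 3199 in the tissue differences. Without a fold minimum the averaged CR effect in SkM had 4 members (against 2), and with at least 10 counts per library the tissues differed in 3 (against 5). For all genes these settings gave 4556 (against 1922) and 6279 (against 8283). The cause was not tested, except that a fit with more counts required tests fewer genes.

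With each library left out in turn, counts of members ranged from 4 (without control library 3) to 7 for CR against control in BAT, from 0 (without CREX library 2 or 3) to 3 for CREX against EX in BAT, and from 0 to 1 for both tissue differences. Over all genes the calls ranged from 994 to 1717 and from 363 to 582 in the BAT comparisons. In the tissue differences they ranged from 663 to 1424 (sedentary) and from 333 to 2237 (trained). Same-numbered libraries did not deviate together (mean correlation -0.302 to 0.146), so the replicate block pairs only numbers. It left Mmp9, Timp2 and Timp4 uncalled in sedentary BAT, Timp3 in trained BAT and Mmp15 in sedentary SkM, where Timp4 was gained and the Syn2 call was lost (1.16, adjusted p = 0.0517). Members near 3 counts, Timp1 in both tissues and Mmp3 and Mmp9 in SkM, could not be compared at this depth.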
